A study of Mus musculus with 20 samples.

Results

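RNA of the mouse abdominal aorta was measured for 10 genes of the heat shock and small heat shock protein families: Hspa1a, Hspa1b, Hspa8, Hsp90aa1, Hsph1, Dnajb1, Hspb1, Hspb6, Hspb7 and Hspb8. They were taken by symbol from a given list, which was chosen with earlier results of these data known. They are 10 of the 15346 named genes listed in the tables of the compared libraries, and all 10 were among the 12645 genes with a mean of at least 1 FPKM that were tested. FPKM counts fragments per kilobase of transcript and is scaled to the size of the library, so levels can be compared between genes. The values of a gene's annotated transcripts were added up.

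The study gave saline or angiotensin II (Ang II), a pressor peptide that narrows arteries, to wild-type (WT) mice and to mice labelled KO. Its title names DAPK1, a calcium/calmodulin-dependent kinase. The 3 groups compared here were WT given saline, WT given Ang II (a dose of 500 ng for each kg and min), and labelled KO given the same dose of Ang II, each with 5 libraries of separate animals. Libraries carry their label as a name, with NS meaning saline and the digits the animal. The remaining 5 of the 20 libraries, labelled KO and given saline, have a table of few transcripts, so no member could be summed there. The labels do not give the KO allele, the strain, the age or the length of infusion.

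Heat shock proteins are chaperones that bind unfolded proteins. The HSP70 proteins fold them in an ATP-driven cycle with HSP40 partners such as Dnajb1 and exchange factors such as Hsph1, while HSP90 finishes the folding of kinases and receptors. Small heat shock proteins hold unfolded proteins without ATP, and several are abundant in muscle, where they bind the contractile cytoskeleton. The stress-induced members are switched on by heat shock factor 1, which binds repeated GAA and TTC units in their promoters.

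Depth, worked out from the steps of the values, ranged over 59.0 to 74.4 megareads in the 15 libraries. The libraries correlated with each other at Pearson's r of 0.852 to 0.934 over the tested genes. Dapk1 did not separate the groups: its FPKM was 9.48 to 15.4 (median 12.6) in WT saline, 3.96 to 19.9 (median 9.50) in WT Ang II and 4.997 to 13.8 (median 6.91) in labelled KO Ang II, and the difference of the last 2 had an adjusted p of 0.847 in limma. Its level therefore did not check the KO label. The 8 smooth muscle markers were all present, and their summed FPKM ranged over 5832 to 13112 in the WT saline group, 7021 to 14625 in the WT Ang II group and 5682 to 10309 in the labelled KO Ang II group. Markers of other tissues also varied between libraries: the summed FPKM of skeletal muscle markers was 1.54 to 220.2 and that of brown adipocyte markers 139 to 3078. That of sympathetic neuron markers was 32.5 to 915. The 6 macrophage markers had 177 to 252 in the WT saline group, 260.3 to 372 with Ang II in WT and 177 to 399 in labelled KO Ang II, so that the WT groups did not overlap. Of 4 cardiac muscle markers 2 were listed, with 4.80 in KOAngII612, 5.49 in KOAngII628 and at most 2.05 in the other 13 libraries. Of 8 intestinal epithelium markers 6 were listed, and 5 of these (Reg3b, Defa24, Defa30, Zg16 and Fabp2) were at 0 in all WT saline libraries. The summed FPKM of the intestinal markers was 1.88 to 5.59 in the WT saline group, 1.15 to 15.9 with Ang II in WT and 19.3 to 43.6 in labelled KO Ang II. The part of these markers in the results below was not tested, beyond the settings listed with the alternatives. The samples are pieces of whole tissue, in which fewer cells of a type and less RNA per cell cannot be told apart.

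The GAA and TTC units were looked for in the promoters of the members. Upstream windows of 250 bases from RefSeq (GRCm38.p6) were matched for 8 of the 10 members, all but Hspa8 and Hsp90aa1. They were searched for GAANNTTC and TTCNNGAA, each of which reads the same on both strands. One of these pairs was found in 12.8% of all 32851 windows in the table and in 6 of the members' 11 windows, since a gene can have several starts. These 6 windows belong to Hspa1a, Hspa1b, Hsph1 (both of its windows), Hspb1 and Hspb6, of whose 2 windows 1 holds no pair. They are not separate hits: the Hsph1 windows overlap and hold the same pair, and the Hspa1 windows are nearly identical. No pair was found for Dnajb1, Hspb7 and Hspb8. In the 7 lists of other chaperone genes described below, a pair was in 13 of 59 windows, those of 12 of 45 genes. A run of 3 units, GAANNTTCNNGAA or its other-strand form TTCNNGAANNTTC, was in 0.466% of all windows. It was in 0 of the 8 matched members and in 3 of the 45 other chaperone genes, Dnajb6, Hspd1 and Hspe1. The Hspd1 window that holds it overlaps that of Hspe1, so these 2 are not separate hits, here or among the pairs. Below are the windows of the 2 nearly identical Hspa1 genes and of Hspb1, the most abundant member, each 5′ to 3′ on the gene's strand, with the GAA and TTC units of each pair in capitals. The Hspa1a window is chr17:34972157-34972406 (minus strand), that of Hspa1b is chr17:34959239-34959488 (minus strand) and that of Hspb1 is chr5:135887669-135887918 (plus strand). For Hsph1, whose level varied with that of Hspa1b across these libraries, only the 30 bases around its pair are shown, chr5:149636351-149636380 (minus strand).
Hspa1a: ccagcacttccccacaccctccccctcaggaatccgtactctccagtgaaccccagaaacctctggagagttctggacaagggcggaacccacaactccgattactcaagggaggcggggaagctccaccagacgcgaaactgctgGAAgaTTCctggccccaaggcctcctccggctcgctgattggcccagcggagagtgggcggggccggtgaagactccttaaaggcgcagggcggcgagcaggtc
Hspa1b: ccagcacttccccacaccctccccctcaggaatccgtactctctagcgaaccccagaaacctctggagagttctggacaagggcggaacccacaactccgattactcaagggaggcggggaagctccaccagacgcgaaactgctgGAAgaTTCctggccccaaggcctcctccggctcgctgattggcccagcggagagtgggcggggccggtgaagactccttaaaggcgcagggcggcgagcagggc
Hspb1: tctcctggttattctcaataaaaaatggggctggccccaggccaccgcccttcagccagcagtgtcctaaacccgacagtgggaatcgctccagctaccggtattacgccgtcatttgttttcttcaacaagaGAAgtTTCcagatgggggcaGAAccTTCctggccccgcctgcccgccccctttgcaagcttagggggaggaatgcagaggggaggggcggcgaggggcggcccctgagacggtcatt
Hsph1: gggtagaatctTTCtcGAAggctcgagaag
The pair begins 104 bases before the start in both Hspa1 genes, whose windows were 98.8% identical with 3 differences in 250 bases. Hspb1 holds 2 pairs, 97 and 117 bases before the start. A match of letters is a description and not a measured binding site, and a window without one says only that these letters are not in it.

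The members fell over a wide range of levels. Hspb1 was the most abundant with a mean of 321 FPKM over the 15 libraries, rank 116 of the 14604 genes listed in both tables. Hspa8 followed with 183 FPKM (rank 249), Hspb7 with 145.5 (rank 318), Hsp90aa1 with 90.4 (rank 542), Hspb8 with 81.0 (rank 632), Hspb6 with 53.7 (rank 958) and Hsph1 with 40.1 (rank 1322). The lowest were Hspa1b with 19.3 FPKM (rank 2701), Hspa1a with 13.0 (rank 3887) and Dnajb1 with 11.2 (rank 4385). Neighbours in this order had overlapping library values throughout. Reads did not limit these values: the smallest number worked out for a member in a library was 127, for Hspa1a in WTAngII568, and the largest was 87800, for Hspa8.

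No member passed the test in any comparison. With limma on log2(FPKM + 1) and Benjamini-Hochberg adjustment over all 12645 genes, 0 of 10 members passed an adjusted p of 0.05 in WT Ang II against WT saline, where 0% of all genes passed. It was 0 of 10 in labelled KO Ang II relative to WT Ang II, where 0% of all genes passed, and 0 of 10 in labelled KO Ang II against WT saline, where 0.103% of all genes passed. The members' adjusted p were 0.941 to 0.981, 0.622 to 0.971 and 0.699 to 0.967 in the 3 comparisons. An unadjusted p under 0.05 was reached by 0, 2 and 0 members, against 4.88%, 7.94% and 8.37% of all genes. Of the 10 members 7 had a positive difference in WT Ang II against WT saline (52.6% of all genes), 2 in labelled KO Ang II relative to WT Ang II (48.6%) and 4 in labelled KO Ang II against WT saline (52.7%). The median log2 difference of the members was 0.18, -0.25 and -0.11, beside 0.014, -0.0076 and 0.016 over all genes. The first and second comparison share the WT Ang II libraries, so their directions are not independent. In no comparison did the libraries of 2 groups stay apart for any member, while 0.996%, 1.12% and 1.83% of all genes had groups that did not overlap.

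**Figure D1:**
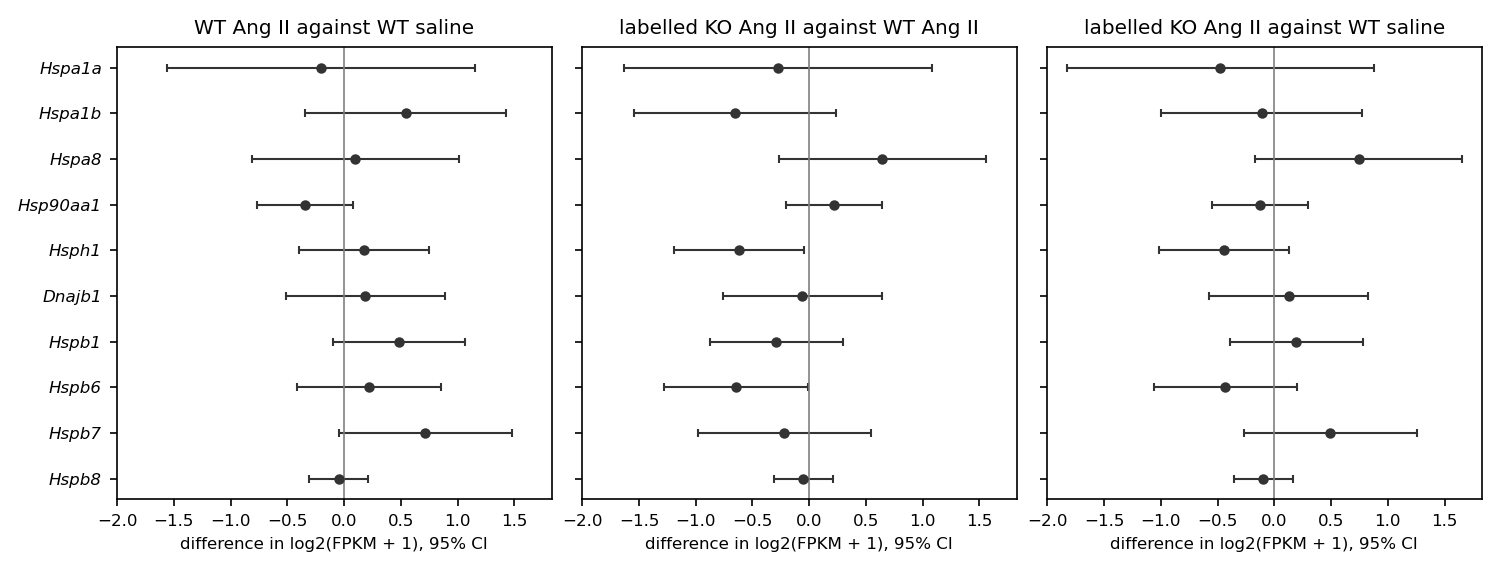
Log2 differences of FPKM + 1 with 95% confidence intervals from limma for the 10 members (vertical axis) in the 3 comparisons. Nearly all intervals cross 0; the exceptions are Hsph1 and Hspb6 in labelled KO Ang II relative to WT Ang II, whose adjusted p were 0.622.

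Hspb1 (HSP27, ENSMUSG00000004951, chromosome 5, 135887919 to 135889563, plus strand) caps and stabilises actin filaments. Its FPKM was 344, 213, 260.2, 258 and 247 in the WT saline libraries, from WTNS_369 through WTNS_373, WTNS_523 and WTNS_547 to WTNS_550. It was 500.2, 316, 292, 409 and 345 in the WT Ang II libraries, from WTAng_II519 through WTAng_II536, WTAngII568 and WTAngII580 to WTAngII581. The labelled KO Ang II libraries had 388, 190.4, 289.5, 572 and 194 in KOAng_II402, KOAngII537, KOAngII560, KOAngII612 and KOAngII628. All WT Ang II libraries lay above 4 of the 5 WT saline libraries, while the labelled KO Ang II libraries held both the lowest and the highest value of the 15. How many of all genes have 4 of 5 libraries apart is not given here, so no separation of groups is read from this. The means were 264 ± 48.3, 372 ± 83.7 and 327 ± 159 (SD, n = 5 each). The log2 difference of WT Ang II against WT saline was 0.48 (SE 0.27, limma adjusted p 0.941). That of labelled KO Ang II relative to WT Ang II was -0.29 (SE 0.27, limma adjusted p 0.749).

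Hspb7, a small heat shock protein of muscle (ENSMUSG00000006221, chromosome 4, 141420779 to 141425311, plus strand), had the largest positive difference among the members in WT Ang II against WT saline. In the same order of animals, its FPKM was 129, 39.5, 154, 137 and 98.8 in WT saline, and 182, 113, 217, 128 and 227 in WT Ang II. It was 143, 97.3, 112, 253 and 152 in labelled KO Ang II. The lowest value by far was that of WTNS_373, and 3 WT Ang II libraries lay above all WT saline libraries. The log2 difference of WT Ang II against WT saline was 0.72 (SE 0.36, 95% confidence interval -0.05 to 1.48, limma adjusted p 0.941), so a change was not shown. Without WTNS_373 it was 0.38 (adjusted p 0.993), and with the skeletal muscle markers as a covariate it was 0.83 (limma adjusted p 0.992). Against WT Ang II, labelled KO Ang II differed by -0.22 (SE 0.36, limma adjusted p 0.863). WTNS_373 and KOAngII537 were also the libraries with the lowest summed smooth muscle markers.

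Hspb6 (HSP20, ENSMUSG00000036854, chromosome 7, 30552178 to 30555443, plus strand) is phosphorylated by cyclic nucleotide-dependent kinases when smooth muscle relaxes. Its FPKM was 53.3, 28.5, 69.1, 73.3 and 54.9 in WT saline. It was 79.5, 45.1, 75.9, 47.9 and 69.6 in WT Ang II, and 20.4, 37.5, 44.5, 62.4 and 43.1 in labelled KO Ang II. Of the labelled KO Ang II libraries 4 lay below all WT Ang II libraries, and KOAngII612, at 62.4, lay among them. The share of all genes with 4 of 5 libraries apart in this way is not given here, so no separation of groups is read from it. The log2 difference was -0.65 (SE 0.30, 95% confidence interval -1.28 to -0.01, unadjusted p 0.0458, limma adjusted p 0.622), so this member did not pass. Without KOAng_II402 it was -0.42 (adjusted p 0.856). WT Ang II against WT saline gave 0.22 (SE 0.30, limma adjusted p 0.949).

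Hspb8 (HSP22, the partner of Bag3 in the removal of damaged proteins, ENSMUSG00000041548, chromosome 5, 116408491 to 116422864, minus strand) varied least. Its FPKM was 70.7 to 98.2 (median 84.5) in WT saline, 73.2 to 86.0 (median 84.6) in WT Ang II and 61.1 to 94.0 (median 79.1) in labelled KO Ang II. The highest of the 15 values was 1.61 times the lowest, and the 3 log2 differences were -0.05, -0.05 and -0.10, each with an SE of 0.12 (limma adjusted p 0.969, 0.917 and 0.887).

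**Figure D2:**
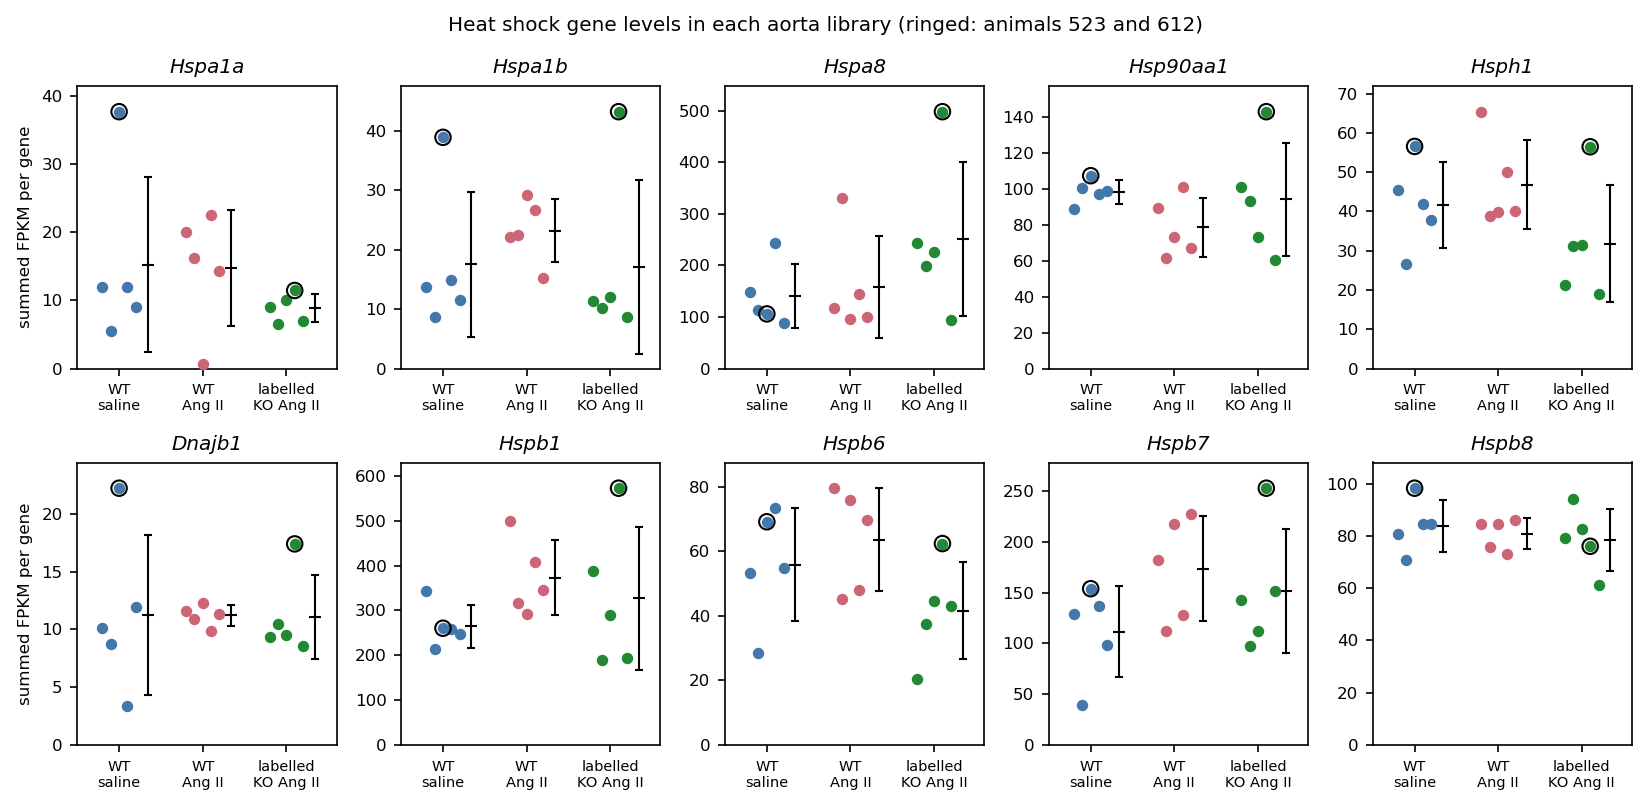
FPKM of the 10 members (1 panel each, vertical axis) in every library of the 3 groups, with the mean and SD of each group of 5; rings mark WTNS_523 and KOAngII612. The groups overlap in every panel, and Hspb8 stays between 61.1 and 98.2 while Hspa1a runs from 0.631 to 37.7.

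Hspa1a and Hspa1b (ENSMUSG00000091971, chromosome 17, 34969190 to 34972156, and ENSMUSG00000090877, chromosome 17, 34956436 to 34959238, both on the minus strand) code for the stress-inducible HSP70. Their coding sequences of 1926 and 1929 bases were 99.4% identical in the GENCODE M21 transcripts, with 11 differences in the alignment, and their proteins differed at 1 aligned position. Of all stretches of 100 bases in the Hspa1a transcript, 47.1% also occur in the Hspa1b transcript, so reads can belong to either, and the rule by which the authors divided such reads is not given in the sources used here. For this reason the 2 single values are uncertain, and their sum is the firmer one. Hspa1a took 38.9% to 49.2% of the sum (median 45.0%) in 13 libraries, 20.9% in KOAngII612 and 2.11% in WTAngII568. In WTAngII568 the values were 0.631 FPKM for Hspa1a and 29.3 for Hspa1b, and in KOAngII612 they were 11.5 and 43.3.

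The summed FPKM of the pair was 25.8, 14.3, 76.7, 27.0 and 20.5 in WT saline. It was 42.3, 38.7, 29.9, 49.3 and 29.7 in WT Ang II, and 20.3, 16.8, 22.2, 54.7 and 15.7 in labelled KO Ang II. The WT Ang II libraries lay above 4 of 5 libraries of each other group, and 1 animal of each other group, WTNS_523 and KOAngII612, lay above all WT Ang II libraries. The means were 32.8 ± 25.02, 38.0 ± 8.38 and 25.9 ± 16.3 (SD, n = 5 each). The log2 difference of the sum was 0.42 (SE 0.39, limma adjusted p 0.941) in WT Ang II against WT saline and -0.67 (SE 0.39, limma adjusted p 0.639) in labelled KO Ang II relative to WT Ang II. Against WT saline, labelled KO Ang II differed by -0.25 (SE 0.39, limma adjusted p 0.911).

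Taken singly, Hspa1b had FPKM of 13.7, 8.72, 39.0, 14.96 and 11.5 in WT saline, 22.2, 22.5, 29.3, 26.7 and 15.3 in WT Ang II, and 11.4, 10.2, 12.1, 43.3 and 8.62 in labelled KO Ang II. The pattern was that of the sum: without WTNS_523 the WT Ang II and WT saline libraries would not overlap, and without KOAngII612 neither would the 2 Ang II groups. These 2 libraries were picked after the values were seen. The share of all genes that would part in this way is not given here, so no separation of groups is read from it. The log2 difference was 0.54 (SE 0.41, limma adjusted p 0.941) in WT Ang II against WT saline, and 0.87 (adjusted p 0.806) without WTNS_523 or 0.36 (adjusted p 0.993) without WTNS_373. In labelled KO Ang II relative to WT Ang II it was -0.65 (SE 0.41, limma adjusted p 0.655), and -1.04 (adjusted p 0.395) without KOAngII612. Hspa1a had 12.04, 5.56, 37.7, 12.05 and 9.01 FPKM in WT saline, 20.1, 16.2, 0.631, 22.6 and 14.4 in WT Ang II, and 8.98, 6.54, 10.1, 11.5 and 7.04 in labelled KO Ang II. Apart from WTNS_523 and WTAngII568, picked in the same way, the WT Ang II values of Hspa1a lay above those of both other groups. Its log2 difference of WT Ang II against WT saline was -0.20 (SE 0.63, limma adjusted p 0.972), opposite in sign to that of Hspa1b and of the sum.

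**Figure D3:**
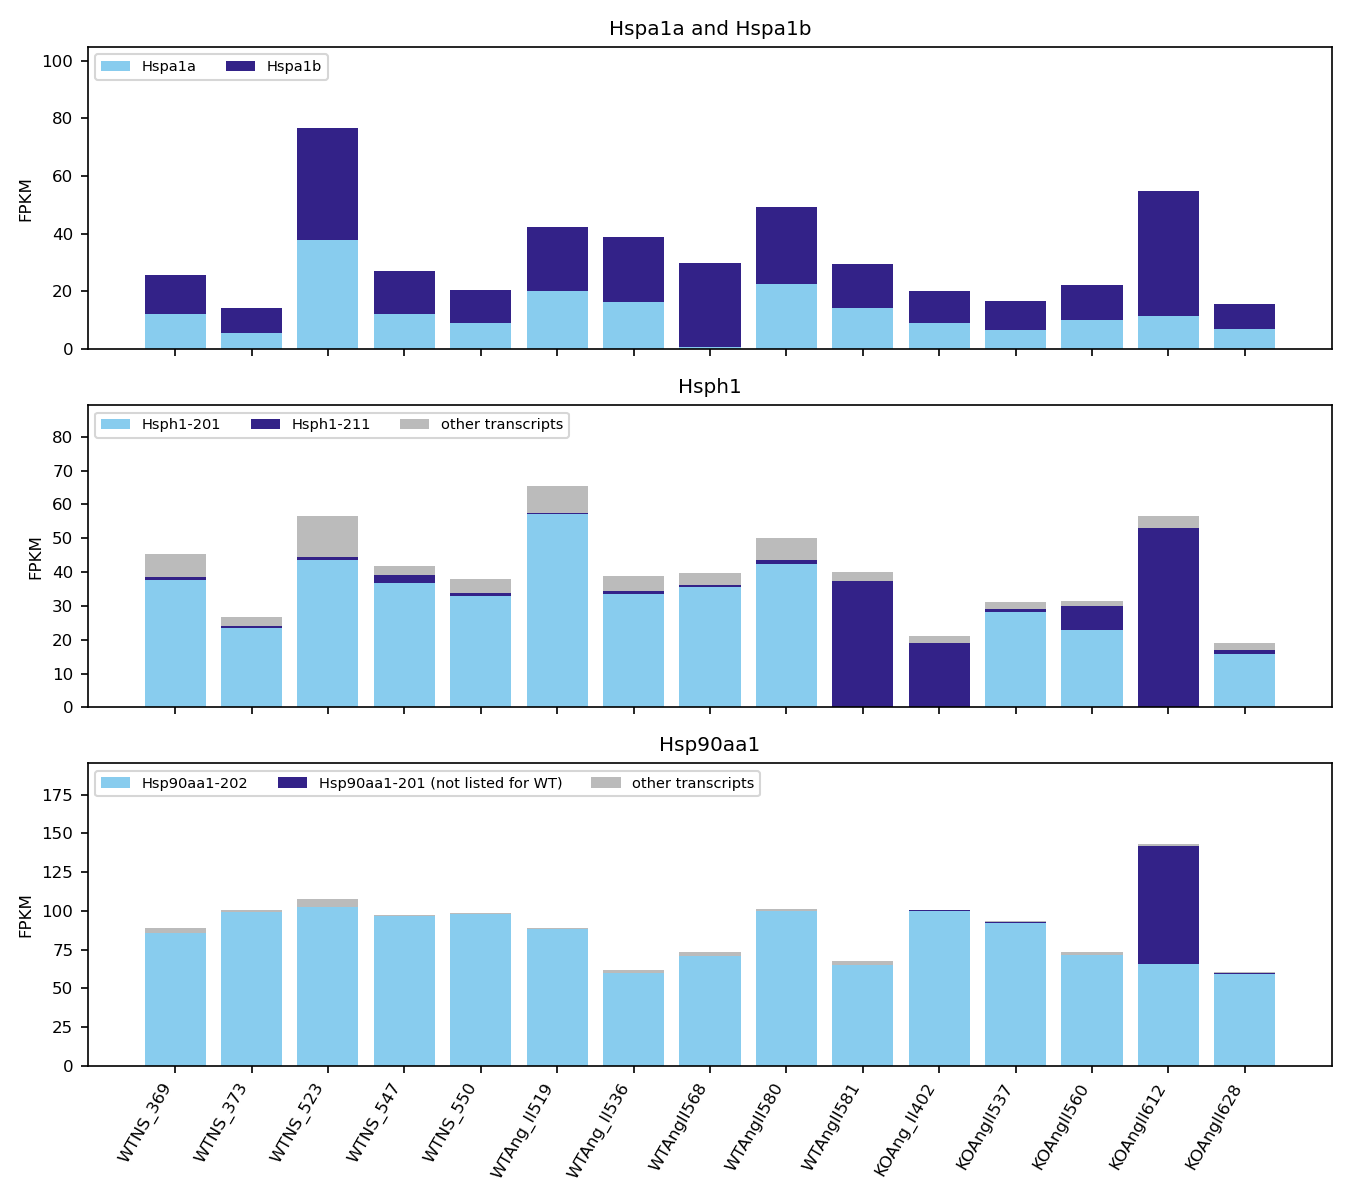
FPKM (vertical axis) in the 15 libraries as stacked bars: Hspa1a and Hspa1b (top), the transcripts of Hsph1 (middle) and those of Hsp90aa1 (bottom). WTAngII568 has 0.631 of Hspa1a beside 29.3 of Hspa1b, 3 libraries have Hsph1-211 in place of Hsph1-201, and Hsp90aa1-201 reaches 76.4 in KOAngII612.

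Hspa8 (HSC70, the constitutive HSP70, ENSMUSG00000015656, chromosome 9, 40800984 to 40810087, plus strand) spread widely within each group. Its FPKM was 148, 114, 106, 244 and 87.6 in WT saline, 117, 331, 95.3, 145 and 100.02 in WT Ang II, and 242, 199, 226, 498 and 93.3 in labelled KO Ang II. Of the labelled KO Ang II libraries 4 had 199 or more, a level that 1 library of each other group reached. The log2 difference of labelled KO Ang II was 0.65 (SE 0.43, limma adjusted p 0.660) against WT Ang II and 0.74 (SE 0.43, limma adjusted p 0.699) against WT saline. Without KOAngII612 these were 0.35 (adjusted p 0.748) and 0.45 (adjusted p 0.774). Part of the sum comes from transcripts that code for no protein. The main coding transcript, Hspa8-201, held 53.9% to 99.4% of the gene's sum, with 52.8 to 493 FPKM. The retained intron Hspa8-207 had 62.2, 36.4, 2.40, 0.133 and 22.5 FPKM in WT saline, 3.81, 0.633, 0.717, 4.24 and 32.5 in WT Ang II, and 0.260, 0.716, 1.55, 0.496 and 37.1 in labelled KO Ang II. It exceeded 20 FPKM in WTNS_369, WTNS_373, WTNS_550, WTAngII581 and KOAngII628, the last of which had the lowest Hspa8-201. Hspa8 and Hsp90aa1 have processed pseudogenes, and the handling of reads shared with these is not stated.

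Hsph1 (HSP110, an exchange factor of HSP70, ENSMUSG00000029657, chromosome 5, 149614287 to 149636376, minus strand) had the smallest unadjusted p among the members in labelled KO Ang II relative to WT Ang II. Its FPKM was 45.4, 26.6, 56.6, 41.9 and 37.9 in WT saline. It was 65.4, 38.9, 39.8, 50.04 and 40.1 in WT Ang II, and 21.2, 31.1, 31.5, 56.5 and 18.96 in labelled KO Ang II. As for Hspb6, 4 labelled KO Ang II libraries lay below all WT Ang II libraries and KOAngII612 did not. The share of all genes that do so is not given here either, so no separation of groups is read from it. The log2 difference was -0.62 (SE 0.27, 95% confidence interval -1.19 to -0.05, unadjusted p 0.0363, limma adjusted p 0.622), which did not pass. WT Ang II against WT saline gave 0.18 (SE 0.27, limma adjusted p 0.952).

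The transcript to which most Hsph1 reads were assigned differed between libraries. Hsph1-201 (3240 bases, coding part 2445) had 15.9 to 57.3 FPKM in 12 libraries and was listed at 0 in WTAngII581, KOAng_II402 and KOAngII612. In these 3, Hsph1-211 (3802 bases, coding part 2577) had 37.4, 18.98 and 53.2 FPKM. It had 7.27 in KOAngII560 and 0.304 to 2.37 in the 11 other libraries. FPKM divides by the length of the transcript, so a read on the longer Hsph1-211 counts for less than a read on Hsph1-201. In reads over all transcripts, not scaled for depth, KOAngII612 had the most Hsph1 (15619), ahead of WTAng_II519 (13016). What this adds to the differences of the gene was not tested. The 3 libraries with Hsph1-201 at 0 came from both Ang II groups and none from WT saline, which is too few to tie this to a group. The rule by which reads shared by the 2 transcripts were divided is not given in the sources used here.

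Hsp90aa1, the inducible HSP90 (ENSMUSG00000021270, chromosome 12, 110690605 to 110702728, minus strand), had 88.8, 100.4, 107, 97.3 and 98.9 FPKM in WT saline and 89.3, 61.8, 73.2, 101 and 67.3 in WT Ang II. The values were 101, 93.3, 73.4, 143 and 60.3 in labelled KO Ang II. WT saline was tight, and 3 WT Ang II libraries lay below it. The log2 difference of WT Ang II against WT saline was -0.34 (SE 0.20, limma adjusted p 0.941). The 143 FPKM of KOAngII612 rested on Hsp90aa1-201 (2852 bases), which had 76.4 FPKM there, 53.4% of the gene, 0.217 to 0.71001 in the other labelled KO Ang II libraries, and no row in the WT tables. Hsp90aa1-202 (3281 bases) was in all 15 libraries with 59.2 to 102 FPKM. With only the transcripts listed for all 15 libraries, labelled KO Ang II relative to WT Ang II went from 0.22 (SE 0.20, limma adjusted p 0.737) to 0.0045 (adjusted p 0.997), and against WT saline from -0.12 (adjusted p 0.911) to -0.34 (adjusted p 0.679).

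Dnajb1 (HSP40, the co-chaperone that hands unfolded proteins to HSP70, ENSMUSG00000005483, chromosome 8, 83608193 to 83612653, plus strand) had 10.1, 8.71, 22.2, 3.35 and 11.9 FPKM in WT saline. It had 11.6, 10.9, 12.3, 9.90 and 11.4 in WT Ang II and 9.35, 10.5, 9.53, 17.4 and 8.55 in labelled KO Ang II. The group means of 11.3 ± 6.91, 11.2 ± 0.908 and 11.1 ± 3.61 (SD, n = 5 each) lay close together, while WT saline held both the lowest and the highest library. The log2 differences were 0.19, -0.06 and 0.13 (SE 0.33 each, limma adjusted p 0.956, 0.971 and 0.947).

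The highest and lowest values were gathered in a few animals. KOAngII612 was the highest library for 5 members (Hspa1b, Hspa8, Hsp90aa1, Hspb1 and Hspb7) and among the top 2 for 6. WTNS_523 was the highest for 3 (Hspa1a, Dnajb1 and Hspb8) and among the top 2 for 6. In FPKM, WTAng_II519 was the highest for Hsph1 and Hspb6. KOAngII628 was the lowest for 4 members (Hspa1b, Hsp90aa1, Hsph1 and Hspb8). The share of all genes that were highest or lowest in these libraries is not given here. These counts are therefore not shown to be particular to the members. The same 2 libraries, KOAngII612 and WTNS_523, had the highest summed FPKM of 8 immediate early genes (Fos, Fosb, Jun, Junb, Egr1, Atf3, Ier2 and Dusp1, which respond within minutes to stress, handling or growth signals): 163.8 and 150.4, against at most 117.9 in the other 13.

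Across the 15 libraries, 22 relations were computed, those of each member and of the Hspa1 sum with the mean log2 level of the immediate early genes and of the smooth muscle markers, with 100000 permutations each. The adjustment covers these 22 relations alone. It was made separately for Pearson's r and for Spearman's rho, so it does not cover the choice between the 2. The share of all tested genes with relations as strong is not given here, so these relations are not shown to be particular to the members. With the immediate early genes, Hspa1b had Pearson's r of 0.787 (permutation p 0.00048, adjusted 0.0106) and Spearman's rho of 0.725 (permutation p 0.00281, adjusted 0.0206). Without WTNS_523 and KOAngII612, the 2 libraries farthest from the median, r was 0.555, and with the group means removed it was 0.802. The Hspa1 sum had r of 0.698 (permutation p 0.0041, adjusted 0.0451) and rho of 0.679 (permutation p 0.00684, adjusted 0.0301), but r fell to 0.385 without the same 2 libraries, so this relation rests on them. Dnajb1 had rho of 0.854 (permutation p 0.00021, adjusted 0.00462) and r of 0.640 (permutation p 0.00805, adjusted 0.0590), which was 0.278 without those 2. Its r over the 15 libraries thus depended on them, while r within WT Ang II, which holds neither, was 0.897 (n = 5, not tested). Within the groups of 5, given with no test, r of the Hspa1 genes was below 0 in WT Ang II, though near 0 for Hspa1b, and above 0 in the other groups. Pearson's r of the Hspa1 sum was 0.949 in WT saline, -0.956 in WT Ang II and 0.875 in labelled KO Ang II, and that of Hspa1b was 0.952, -0.170 and 0.918. Dnajb1 had 0.661, 0.897 and 0.946.

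For Hspb6 and Hspb7 the relation with the immediate early genes was as strong without these 2 libraries. Hspb6 had r of 0.601 (permutation p 0.0180, adjusted 0.0669) and rho of 0.736 (permutation p 0.00278, adjusted 0.0206), and r of 0.628 without the 2. Hspb7 had r of 0.631 (permutation p 0.0112, adjusted 0.0617) and rho of 0.643 (permutation p 0.0116, adjusted 0.0425), and r of 0.618 without the 2. For both, the rank relation passed an adjusted p of 0.05 and the linear one did not. Hsph1 had r of 0.596 (permutation p 0.0190, adjusted 0.0669) and rho of 0.629 (permutation p 0.0140, adjusted 0.0441), with r of 0.430 without the 2. Its r within the groups was 0.820 in WT saline, -0.434 in WT Ang II and 0.765 in labelled KO Ang II, while Hspb6 (0.648, 0.713 and 0.486) and Hspb7 (0.654, 0.838 and 0.840) had a positive r in all 3. With the smooth muscle markers, Hspb6 had r of 0.582 (permutation p 0.0213, adjusted 0.0669) and rho of 0.707 (permutation p 0.00425, adjusted 0.0234). That r was 0.407 without WTAng_II519 and WTNS_373, the 2 libraries farthest from the median of these markers. Hspb7 had r of 0.501 (permutation p 0.0502, adjusted 0.138) with the smooth muscle markers, which did not pass.

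**Figure D4:**
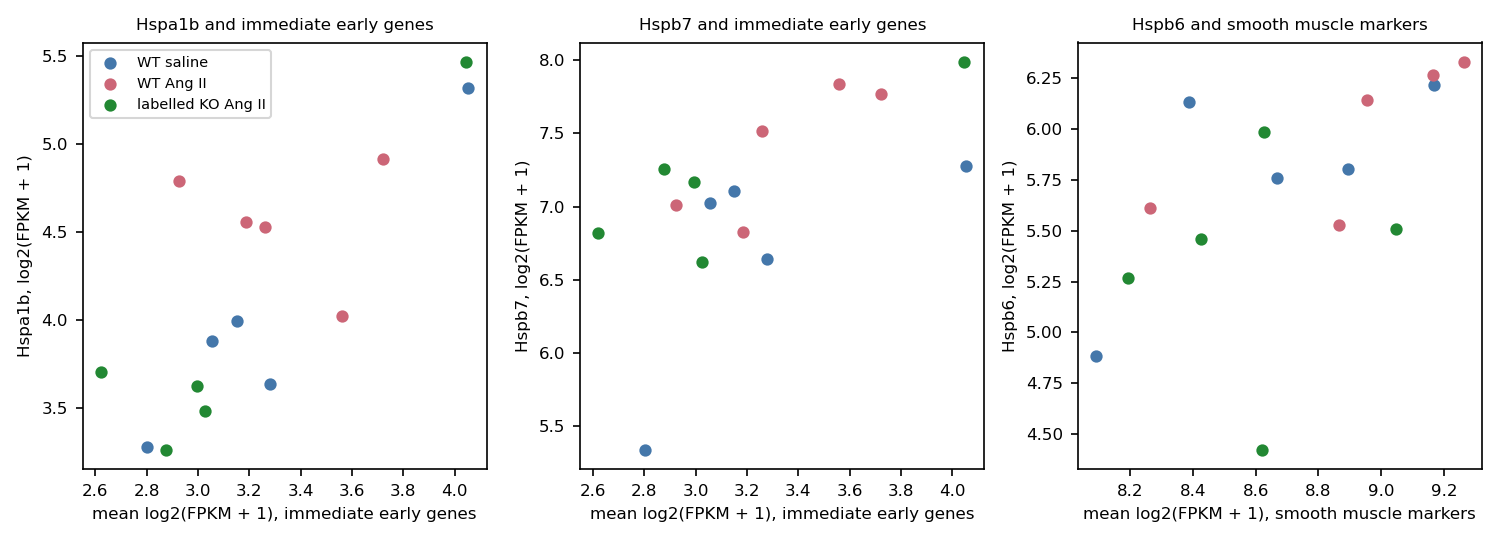
Log2(FPKM + 1) of Hspa1b and Hspb7 against the mean log2(FPKM + 1) of the immediate early genes and of Hspb6 against that of the smooth muscle markers, 1 point per library, coloured by group. The 2 points at the right of the first panel are WTNS_523 and KOAngII612 (r = 0.787 with them and 0.555 without), and r was 0.631 for Hspb7 and 0.582 for Hspb6.

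Members were also compared with each other over the 15 libraries, as a description: 2 members of a pair are read from the same libraries and so share their depth and tissue makeup. Over the 45 pairs Pearson's r ran from -0.20 (Hspa8 and Hspb6) to 0.785, with a median of 0.290, and 5 pairs were below 0. The highest were Hspa1b and Hsph1 with 0.785, Hsph1 and Hspb6 with 0.761, Hspa1b and Hspb1 with 0.615, Hspa1b and Hspb7 with 0.599, and Hspb6 and Hspb7 with 0.595. Hspa8 stood at or near 0 with Dnajb1 (-0.099) and Hspb8 (-0.041), as did Hspb1 with Hspb8 (0.011). With group means removed, Hspa1b and Hsph1 remained at 0.785 and Hspb6 and Hspb7 were at 0.755. The genes most like a member over the 15 libraries, by Pearson's r of log2 values, were named for 5 members. For Hspa1b they were Pxdc1 (0.865), Fosb (0.859) and Pde6h (0.858). These and the pairs above use Hspa1b alone, whose split from Hspa1a is uncertain. For Hsph1 they were Tax1bp3 (0.856), Ppp3cb (0.853) and Abra (0.852). For Hspb6 they were Sod3 (0.899), Rab21 (0.896) and Nfat5 (0.894), and for Hspb7 they were Efhd2 (0.895), Cyb5r3 (0.894) and Col15a1 (0.894). Hspb1 was most like another small heat shock protein, Cryab (0.852), ahead of Serpinb6b (0.819) and Cse1l (0.816).

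The rest of the chaperone system was read from 7 lists of 54 genes, of which 49 were tested. None passed in any of the 3 comparisons with limma: an unadjusted p under 0.05 was reached by 1, 5 and 0 of the 49, beside 4.88%, 7.94% and 8.37% of all genes. A positive difference was found for 23, 26 and 27 of the 49, beside 52.6%, 48.6% and 52.7% of all genes, and the median log2 difference was -0.0040, 0.018 and 0.0054. Hsf1, the factor that switches on the heat shock genes, had 13.4 ± 2.52 FPKM in WT saline, 13.2 ± 1.25 in WT Ang II and 13.1 ± 2.45 in labelled KO Ang II (SD, n = 5 each). Hsp90ab1, the constitutive HSP90, had 442 ± 35.5, 385 ± 36.2 and 423 ± 49.8. Hspa9, the mitochondrial HSP70, had 157 ± 55.8, 114 ± 56.7 and 159 ± 43.6. Cryab (alpha B-crystallin) had 59.3 ± 9.20, 73.8 ± 14.2 and 79.5 ± 45.4, and Hspb2, its neighbour gene, had means of 5.65, 7.47 and 6.21. Of the co-chaperones, Dnaja1 had means of 60.7, 65.8 and 59.5 FPKM, Bag1 94.2, 89.6 and 92.2, and Bag3, the partner of Hspb8, 34.5, 35.1 and 31.7.

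By list, all 3 tested small heat shock genes outside the members had a positive difference in WT Ang II against WT saline and all 3 a negative one in labelled KO Ang II relative to WT Ang II, with medians of 0.28 and -0.03. Of the 10 chaperonin genes 2 were positive in the first comparison and 10 in the second, with medians of -0.11 and 0.096. Over all genes 52.6% and 48.6% were positive. None of these 13 genes reached an unadjusted p under 0.05 in either comparison, and both comparisons share the WT Ang II libraries, so no direction of a list is read from these counts. Hspe1, the mitochondrial co-chaperonin, had means of 96.8, 71.1 and 92.2 FPKM in WT saline, WT Ang II and labelled KO Ang II.

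Of the 49, 5 had an unadjusted p under 0.05 in labelled KO Ang II relative to WT Ang II and are named after their values were seen. Dnajb4, an HSP40 of muscle, had means of 38.2, 40.4 and 19.3 FPKM in WT saline, WT Ang II and labelled KO Ang II, with a log2 difference of -1.22 (limma adjusted p 0.622). Fkbp5, an HSP90 co-chaperone of the glucocorticoid receptor, had 51.8, 70.6 and 43.0 (-0.74), Dnajb5 had 29.95, 37.9 and 24.2 (-0.65) and Ptges3 had 26.8, 31.8 and 24.3 (-0.39), each with a limma adjusted p of 0.622. Hspa4l, of the HSP110 family, had 7.60, 5.84 and 9.02 and the opposite direction (0.53, limma adjusted p 0.552).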

How the data were processed

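RNA-seq of mouse abdominal aorta was compared in 15 libraries of 3 groups of 5. The authors deposited FPKM per transcript and library; that unit was read from the values, since no header names it. Per the submitters' processing notes, reads went through bcl2fastq, fastp and FastQC, and the genome was mm10; versions, aligner and quantifier: not given in the sources used here. Per the labels' protocols, RNA came from TRIzol extraction and 1 µg of total RNA went into NEBNext Ultra libraries; strand is not stated.

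From these files, Ensembl transcripts were matched to GENCODE M21 (GRCm38) for 32618 of 32654 (WT tables) and 32908 of 32945 (KO Ang II table), and FPKM were summed per gene, with an unlisted transcript taken as 0. Of the 12645 tested genes 2220 had a transcript unlisted in 1 table. The authors' own assembled transcripts, named MERGE, have no gene name and were left out, 12.2% to 15.8% of the summed FPKM. Depth was worked out from the steps of the values: 98.7% to 99.1% of values below 50 reads lay within 0.05 read of a whole number. The values are FPKM, so no count model was used.

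Differences were tested with limma 3.58.1 (trend, robust) in R 4.3.3 on log2(FPKM + 1), which shrinks the differences of low genes, for genes with a mean of at least 1 FPKM, in 1 model of the 15 libraries, with Benjamini-Hochberg adjustment over all 12645 genes and a threshold of 0.05. The code was tested on simulated data. Alternatives were pseudocount, filter, scaling, unlisted transcripts, marker covariates, the samples fitted and leaving out each library. Alternatives with a smooth muscle covariate, without WTNS_523 and KOAngII612, and with the Hspa1 genes summed were added after seeing the data.

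Named are the 10 members and, from 7 chaperone lists, up to 4 genes that pass or else the 2 with the highest mean, some of which are left out of the text; likeness to a member is Pearson's r over the 15 libraries. The members and lists were chosen with earlier results of these data known. For the KO saline libraries the description says WT, while title and genotype say KO; the title was used. The labels name no batch, and p-values measure the spread between these animals.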

Additional observations from a re-analysis of the deposited data

Results flagged for a closer look

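Of 30 groups of 5 values (10 members in 3 groups), 5 had 1 library whose gap to its nearest neighbour, divided by the range of the group, was above Dixon's 95% critical value of 0.71. Chance flags about 1 in 20 groups if values are normally spread and the groups independent. The ratio was taken on FPKM without a log, and Hspa1a and Hspa1b share reads. The 5 flags are therefore not set against that rate. Hspa1a was 37.7 FPKM in WTNS_523, next to 12.05 in the nearest WT saline library (gap over range 0.798). Hspa1b was 39.0 FPKM in the same library, next to 14.96 (0.794). Hspa1b was 43.3 FPKM in KOAngII612, next to 12.1 in the nearest labelled KO Ang II library (0.900). Dnajb1 was 17.4 FPKM in KOAngII612, next to 10.5 (0.784). Hspa8 was 331 FPKM in WTAng_II536, next to 145 in the nearest WT Ang II library (0.791). WTNS_523 and KOAngII612, which hold 4 of these 5 values, also had the highest summed immediate early genes (150.4 and 163.8 FPKM); the part of the latter was not tested.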

How the results depend on the processing

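The count of members past the threshold was 0 in each comparison under every setting run, and the smallest adjusted p of any member in any setting was 0.298. Of 416 values in 16 settings without leave-one-out, 18 changed sign, and of 300 leave-one-out values 15 did. Of the 30 pairs of member and comparison, 16 never changed sign.

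In WT Ang II against WT saline, the sign changed for Hspb8 with rescaling to equal sums (0.023), for Hspa8 with a skeletal muscle covariate (-0.011), for Hspa8 (-0.087), Hsph1 (-0.076) and Hspb6 (-0.19) with 3 marker covariates, for Hspb6 without animal numbers below 500 (-0.075), for Hspa1a (0.18) and Hspb8 (0.012) without WTNS_523 and KOAngII612, and for Hspa1a when summed with Hspa1b (0.42). In labelled KO Ang II against WT Ang II it changed for Dnajb1 with the skeletal muscle covariate (0.046) and with the WT Ang II libraries that carry intestinal transcripts alone (0.011), for Dnajb1 (0.32), Hspb1 (0.11) and Hspb7 (0.41) with 3 covariates, and for Hspb7 with a smooth muscle covariate (0.024). In labelled KO Ang II against WT saline it changed for Hspa1b with the skeletal muscle covariate (0.16) and with 3 covariates (0.29), and for Hspb1 without WTNS_523 and KOAngII612 (-0.041). The causes were not tested.

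Leaving out 1 library gave, in WT Ang II against WT saline, -0.46 to 0.51 for Hspa1a, -0.21 to 0.32 for Hspa8, -0.14 to 0.47 for Dnajb1, -0.0027 to 0.33 for Hspb6 and -0.11 to 0.012 for Hspb8. In labelled KO Ang II against WT Ang II it gave -0.22 to 0.014 for Dnajb1 and -0.12 to 0.035 for Hspb8. In labelled KO Ang II against WT saline it gave -0.50 to 0.21 for Hspa1b, -0.29 to 0.019 for Hsp90aa1, -0.20 to 0.41 for Dnajb1 and -0.040 to 0.36 for Hspb1.

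Hsph1 and Hspb6 in labelled KO Ang II against WT Ang II were -0.21 (adjusted p 0.930) and -0.16 (adjusted p 0.945) with 3 covariates, and -0.85 (adjusted p 0.328) and -0.81 (adjusted p 0.369) without WTNS_523 and KOAngII612. Intestinal transcripts were in all labelled KO Ang II libraries and, at 5 of the 6 listed markers, at 0 in WT saline, so the group and these transcripts cannot be told apart in that comparison. Each member had at least 127 reads in every library. No paired analysis was possible because the animal numbers differ between the groups.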

Other observations

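The labelled KO saline table lists 2 transcripts of these genes, which enter no comparison. The retained intron Hspa8-207 was at 0 FPKM in KONS_387, KONS_412, KONS_555 and KONS_608 and at 0.248 in KONS_627. The Hspb1 transcript Hspb1-202 was at 14.9, 0.339, 1.03, 1.16 and 21.01 in the same order of animals. In the other groups Hspb1-202 was at 35.8, 15.6, 26.3, 27.5 and 0.818 in WT saline, 35.5, 19.2, 15.4, 30.8 and 26.2 in WT Ang II, and 35.6, 17.2, 21.6, 37.1 and 14.1 in labelled KO Ang II. The labelled KO saline table is a selection of transcripts: groups did not overlap for 15.7% of the 1170 it shares with labelled KO Ang II and for 5.90% of the 1067 it shares with WT saline.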
